A study of Mus musculus with 6 samples.

Results

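The accessible chromatin around 10 methylation-controlled germline genes (Dazl, Ddx4, Hormad1, Sycp1, Sycp3, Mael, Tdrd1, Stk31, Piwil2 and Asz1) was described in E14 mouse embryonic stem cells. All 10 were found among 21887 protein-coding genes of the RefSeq table of GRCm38.p6. Peaks overlapping each gene span widened by 50 kb on either side were taken, which gave 51 of the 77629 peaks of the library. The assay was ATAC-seq, a method that marks open DNA by cutting it with the transposase Tn5 and joining sequencing adapters to the cuts. The cells carried an NSD1-dTAG knockin, a tag through which the compound dTAG-13 directs the NSD1 protein to degradation, and were grown in 2i/LIF medium without dTAG-13 (0 h). The labels place 1 library in each of 6 groups. The tagged cells with 500 nM dTAG-13 for 1, 6 and 24 h, and the embryoid bodies of day 6 with and without it, were not analysed here. The peaks thus come from 1 untreated library, no replicate error can be given, and no effect of NSD1 loss was measured. All 10 embryonic stem cell markers checked had a peak at an end or in the body, but so did 9 of the 10 germline genes. That measure therefore does not set the markers apart. The 8 markers with a RefSeq start all had a start peak, against 66.5% of all protein-coding genes with such a start. Their median summit pileup was 114, against 70 over all protein-coding genes with a start peak.

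Genes of this kind serve germ cells and are kept silent in most other cells by DNA methylation of a CpG-rich promoter, which is unusual, since most CpG-rich promoters are free of methylation and open. In embryonic stem cells a variant Polycomb complex with E2F6, MGA and MAX also acts at many of them, through an E2F element and an E-box. Embryonic stem cells in 2i/LIF medium are known for low global DNA methylation. Neither DNA methylation nor RNA was measured in the data used here, so that the genes are methylation-controlled is background and not a result.

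The promoter windows of 6 of the genes are shown, to set genes that carry these elements beside genes that do not. Each window runs from 250 bases before the start to 50 bases after it, 5′ to 3′ on the gene's strand, from RefSeq sequence of GRCm38.p6. Capitals mark the E2F core (TCCCGC, or GCGGGA where it lies on the other strand) and the E-box (CACGTG, which reads alike on both strands). The windows lie at chr13:112652261-112652560 for Ddx4 (minus strand), chr3:95559427-95559726 for Hormad1 (plus strand), chr10:88459337-88459636 for Sycp3 (plus strand), chr19:56825959-56826258 for Tdrd1 (plus strand), chr17:50293571-50293870 for Dazl (minus strand) and chr6:18109012-18109311 for Asz1 (minus strand).
Ddx4: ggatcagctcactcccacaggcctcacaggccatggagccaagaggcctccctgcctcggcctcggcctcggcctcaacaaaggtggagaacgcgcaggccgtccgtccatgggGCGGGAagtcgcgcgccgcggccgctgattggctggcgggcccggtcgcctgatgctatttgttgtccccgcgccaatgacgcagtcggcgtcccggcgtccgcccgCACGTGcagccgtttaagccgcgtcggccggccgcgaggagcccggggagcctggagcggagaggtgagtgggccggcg
Hormad1: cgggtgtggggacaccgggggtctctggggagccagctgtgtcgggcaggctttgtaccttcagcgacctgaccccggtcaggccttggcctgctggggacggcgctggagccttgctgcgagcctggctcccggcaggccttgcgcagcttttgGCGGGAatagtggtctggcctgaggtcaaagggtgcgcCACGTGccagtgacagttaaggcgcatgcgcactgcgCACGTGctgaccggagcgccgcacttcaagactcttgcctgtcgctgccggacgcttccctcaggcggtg
Sycp3: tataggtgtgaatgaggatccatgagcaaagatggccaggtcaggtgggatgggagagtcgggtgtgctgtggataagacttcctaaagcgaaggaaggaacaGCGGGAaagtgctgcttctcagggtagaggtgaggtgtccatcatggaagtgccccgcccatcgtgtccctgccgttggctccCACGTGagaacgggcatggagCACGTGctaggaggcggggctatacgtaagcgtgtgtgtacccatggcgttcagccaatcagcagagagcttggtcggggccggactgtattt
Tdrd1: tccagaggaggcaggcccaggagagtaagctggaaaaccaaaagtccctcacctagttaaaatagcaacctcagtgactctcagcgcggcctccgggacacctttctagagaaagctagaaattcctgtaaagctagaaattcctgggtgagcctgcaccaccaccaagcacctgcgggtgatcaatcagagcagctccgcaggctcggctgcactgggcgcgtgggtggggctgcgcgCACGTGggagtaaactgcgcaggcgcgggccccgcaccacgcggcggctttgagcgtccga
Dazl: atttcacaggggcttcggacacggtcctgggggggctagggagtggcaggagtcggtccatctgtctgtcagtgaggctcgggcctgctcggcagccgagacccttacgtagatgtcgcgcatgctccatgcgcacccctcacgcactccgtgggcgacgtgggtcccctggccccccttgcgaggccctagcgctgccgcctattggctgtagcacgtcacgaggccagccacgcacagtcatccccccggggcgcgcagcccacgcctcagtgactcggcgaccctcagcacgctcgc
Asz1: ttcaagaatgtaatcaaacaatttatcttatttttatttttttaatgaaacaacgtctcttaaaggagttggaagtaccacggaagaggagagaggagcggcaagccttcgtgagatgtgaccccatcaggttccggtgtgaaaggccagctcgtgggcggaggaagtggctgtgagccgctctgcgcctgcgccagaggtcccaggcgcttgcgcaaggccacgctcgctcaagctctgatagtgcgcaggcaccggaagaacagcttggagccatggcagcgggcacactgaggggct

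Start peaks of the germline genes were low where present, and 2 of 9 starts had none. Of the 9 genes with a RefSeq start, 7 had a peak within 1 kb of it (77.8%), against 66.5% of 17492 protein-coding genes with such a start, a share near that of all genes. The summit pileup, a count of how many reads or fragments cover the highest base of a peak, had a median of 17 over these 7 peaks. For the 11635 protein-coding genes with a start peak the median was 70, with quartiles of 41 and 104. Of the 7 peaks, 6 had a pileup of 20 or less, against 8.12% of all start peaks. The exception was Dazl. With a pileup of at least 20 required, 3 of 9 starts (33.3%) had a peak, against 61.6% of all. Hormad1 and Stk31, at exactly 20, are counted both as 20 or less and as at least 20. By gene ends, without regard to strand, 7 of 10 genes (70%) had a peak within 1 kb, against 66.5% of all protein-coding genes. The bracketed range after a pileup is its exact Poisson 95% interval, which covers error of counting and no other.

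Dazl encodes an RNA-binding protein that promotes translation in germ cells. Its start peak, at chr17:50292698-50293752, had a pileup of 66 (51 to 84) and a fold enrichment over local background of 13.8. This was the tallest start peak of the genes described, and stood at percentile 46.4 of all start peaks. The summit lay 776 bp inside the gene, outside the promoter window shown, although the peak reached into that window. No other peak and no other protein-coding gene lay within 50 kb of Dazl. Ddx4 encodes the germ cell RNA helicase VASA. Its start peak, at chr13:112651897-112652469, had a pileup of 17 (9.9 to 27.2) with the summit 31 bp inside the gene. Its interval does not overlap that of Dazl.

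The 3 genes of meiotic chromosome structure had start peaks of like height. Hormad1 encodes a protein of the meiotic chromosome axis, and its start peak at chr3:95559214-95560494 had a pileup of 20 (12.2 to 30.9), with the summit 71 bp before the start. A second peak, at chr3:95588435-95589115, reached 138 (116 to 163) at the other end of Hormad1. That peak also lay at the start of Golph3l, so the tallest gene-end peak of Hormad1 is one it shares with a neighbour. Sycp1 encodes the transverse filament of the synaptonemal complex, which pairs homologous chromosomes. Its start peak, at chr3:102935561-102936071, had a pileup of 16 (9.15 to 26) with the summit 227 bp inside the gene. Sycp3 encodes a lateral element protein of the same complex. It had a pair of peaks near its start, at chr10:88459525-88459859 and chr10:88460152-88460648, each with a pileup of 15 (8.4 to 24.7). Their summits lay 13 bp before and 1008 bp after the start.

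The genes of the piRNA pathway, in which small RNAs guide PIWI proteins against transposons, were divided. Mael encodes a protein of the germ cell granules in which piRNAs are made. Its start peak, at chr1:166238290-166238945, had a pileup of 17 (9.9 to 27.2) with the summit 5 bp inside the gene. Tdrd1, a Tudor protein that binds PIWI proteins, had no peak within 1 kb of any of its annotated starts, and a single peak of 9 (4.12 to 17.1) in its body. Asz1, a granule protein at the mitochondrial surface, had no peak at an end or inside the gene. Piwil2, the PIWI protein also called MILI, had none at either end and 2 in its body, with pileups of 15 and 17. No peak under a pileup of 6 was listed where the background was the genome-wide 1.3, so 5 or fewer could not be detected at such sites. Stk31 encodes a Tudor domain kinase of germ cells, and its start peak at chr6:49395176-49395875 had a pileup of 20 (12.2 to 30.9), with the summit 32 bp inside the gene.

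Apart from Dazl the start peaks could not be ranked among themselves, since the intervals of the other 6, with pileups of 15 to 20, all overlap. These stood between percentiles 4.12 and 7.45 of all start peaks. The local background was the genome-wide value at 5 of the 7, against 5.41% of all start peaks. Their median width was 656 bp, against 916 bp for all start peaks. In fold enrichment, which divides by the local background, the gap was smaller. The median over the genes with a gene-end peak was 7.82, against 11 over all protein-coding genes, a ratio of 0.708, while by pileup the ratio was 0.258. Background and fold come from the same library as the pileup, and start peaks of like pileup were not compared. Background, width and fold therefore cannot be read as traits separate from the low pileup.

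Neighbouring genes on the same stretches of chromosome had taller start peaks in most cases. Within 50 kb of the 9 germline genes with a RefSeq start, 13 starts of other protein-coding genes were found. Of these, 9 had a start peak (69.2%), a share near the 66.5% of all protein-coding starts and under the 77.8% of the germline genes. Their median pileup was 88, with a range of 20 to 188, against 70 over all start peaks. Of the 8 germline genes with such a neighbour, 7 had a lower start pileup than the median of their neighbours' starts, a gene without a peak counting as 0. When both ends of each gene were used instead, it was 4 of 9, with Hormad1 credited with the peak it shares with Golph3l. That count was 5 of 9 with windows of 500 bp or a pileup of at least 20 required, and 6 of 9 with windows of 2500 bp. In the count of 4 of 9, the neighbours Slc38a9 of Ddx4 and Wnt2 of Asz1 stood at 0, although their start peaks reached 88 and 21. That count also took ends of neighbours that lie beyond 50 kb. Sycp3, at 15, is in it only through such an end, which brought its neighbours' median to 72. Of its neighbours' ends within 50 kb, only those of Chpt1 had a peak, at 85. The plot of start peaks by locus gives each value with its interval.

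**Figure D1:**
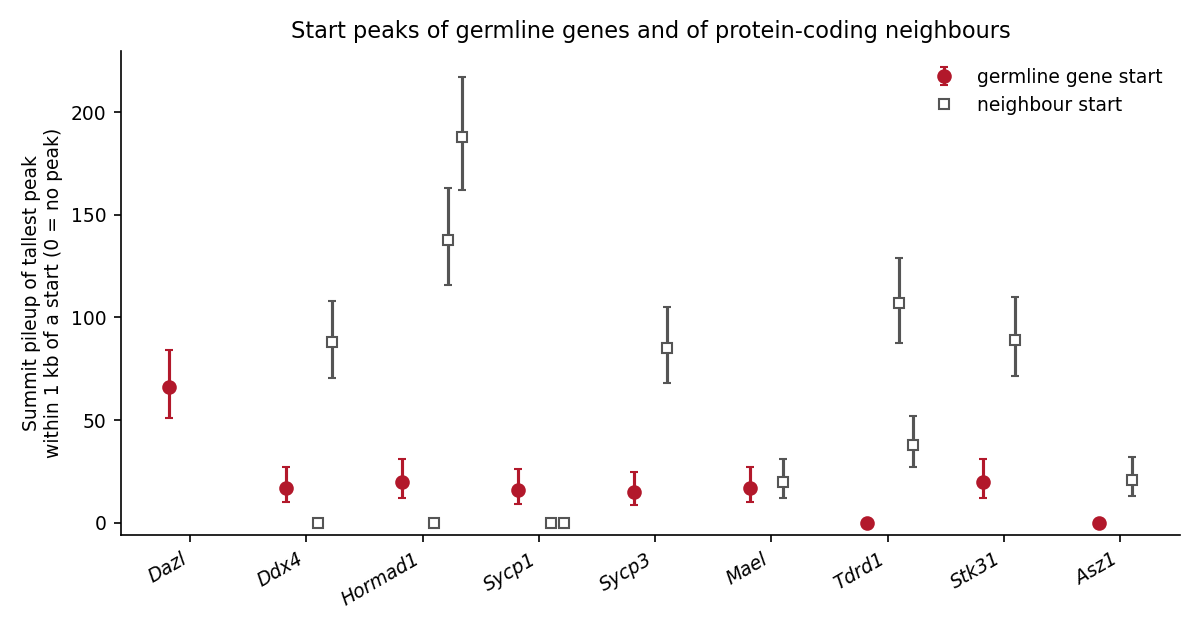
Summit pileup of the tallest peak within 1 kb of a start, for each germline gene (filled circles) and for the protein-coding neighbours whose start lies within 50 kb (open squares), with exact Poisson 95% intervals. A value of 0 means no peak. The germline genes other than Dazl sit at 20 or less, and neighbours reach 188.

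At 7 loci a neighbour's start peak stood above the germline start, at distances from 4.01 kb (Ccdc186) to 78.6 kb (Wnt2). Those of Mael and Asz1 are given after the other 5. Ddx4 had 17 (9.9 to 27.2) at its start, against 88 (70.6 to 108) at that of Slc38a9, an amino acid transporter gene that starts 8.46 kb away, while the start of Il31ra had no peak. Tdrd1 had no peak at its start, against 107 (87.7 to 129) at that of Ccdc186, where the summit lay 3.94 kb before the start of Tdrd1. Hormad1 had 20 (12.2 to 30.9), against 138 (116 to 163) at Golph3l and 188 (162 to 217) at Ensa, while the start of Ctss had no peak. Sycp3 had 15 (8.4 to 24.7), against 85 (67.9 to 105) at Chpt1, an enzyme of phosphatidylcholine synthesis. Stk31 had 20 (12.2 to 30.9), against 89 (71.5 to 110) at Fam221a. At Ddx4, Hormad1, Sycp3 and Stk31 the intervals of the germline start and of these neighbours do not overlap.

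At Mael and Sycp1 the germline start was not lower beyond counting error. Mael had 17 (9.9 to 27.2) at its start, against 20 (12.2 to 30.9) at Ildr2, and the intervals overlap. Sycp1 had 16 at its start, while the starts of Tshb and Nr1h5 near it had no peak. All 7 peaks around Sycp1 lay between 8 and 24, including 3 in its body at 10, 19 and 24. Around Asz1 a single peak was found, that at the start of Wnt2, with a pileup of 21 (13 to 32.1), against no peak at the start of Asz1. Piwil2, compared by ends alone, had no peak at either, against 56 (42.3 to 72.7) at an end of Slc39a14 and 46 (33.7 to 61.4) at an end of Polr3d.

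**Figure D2:**
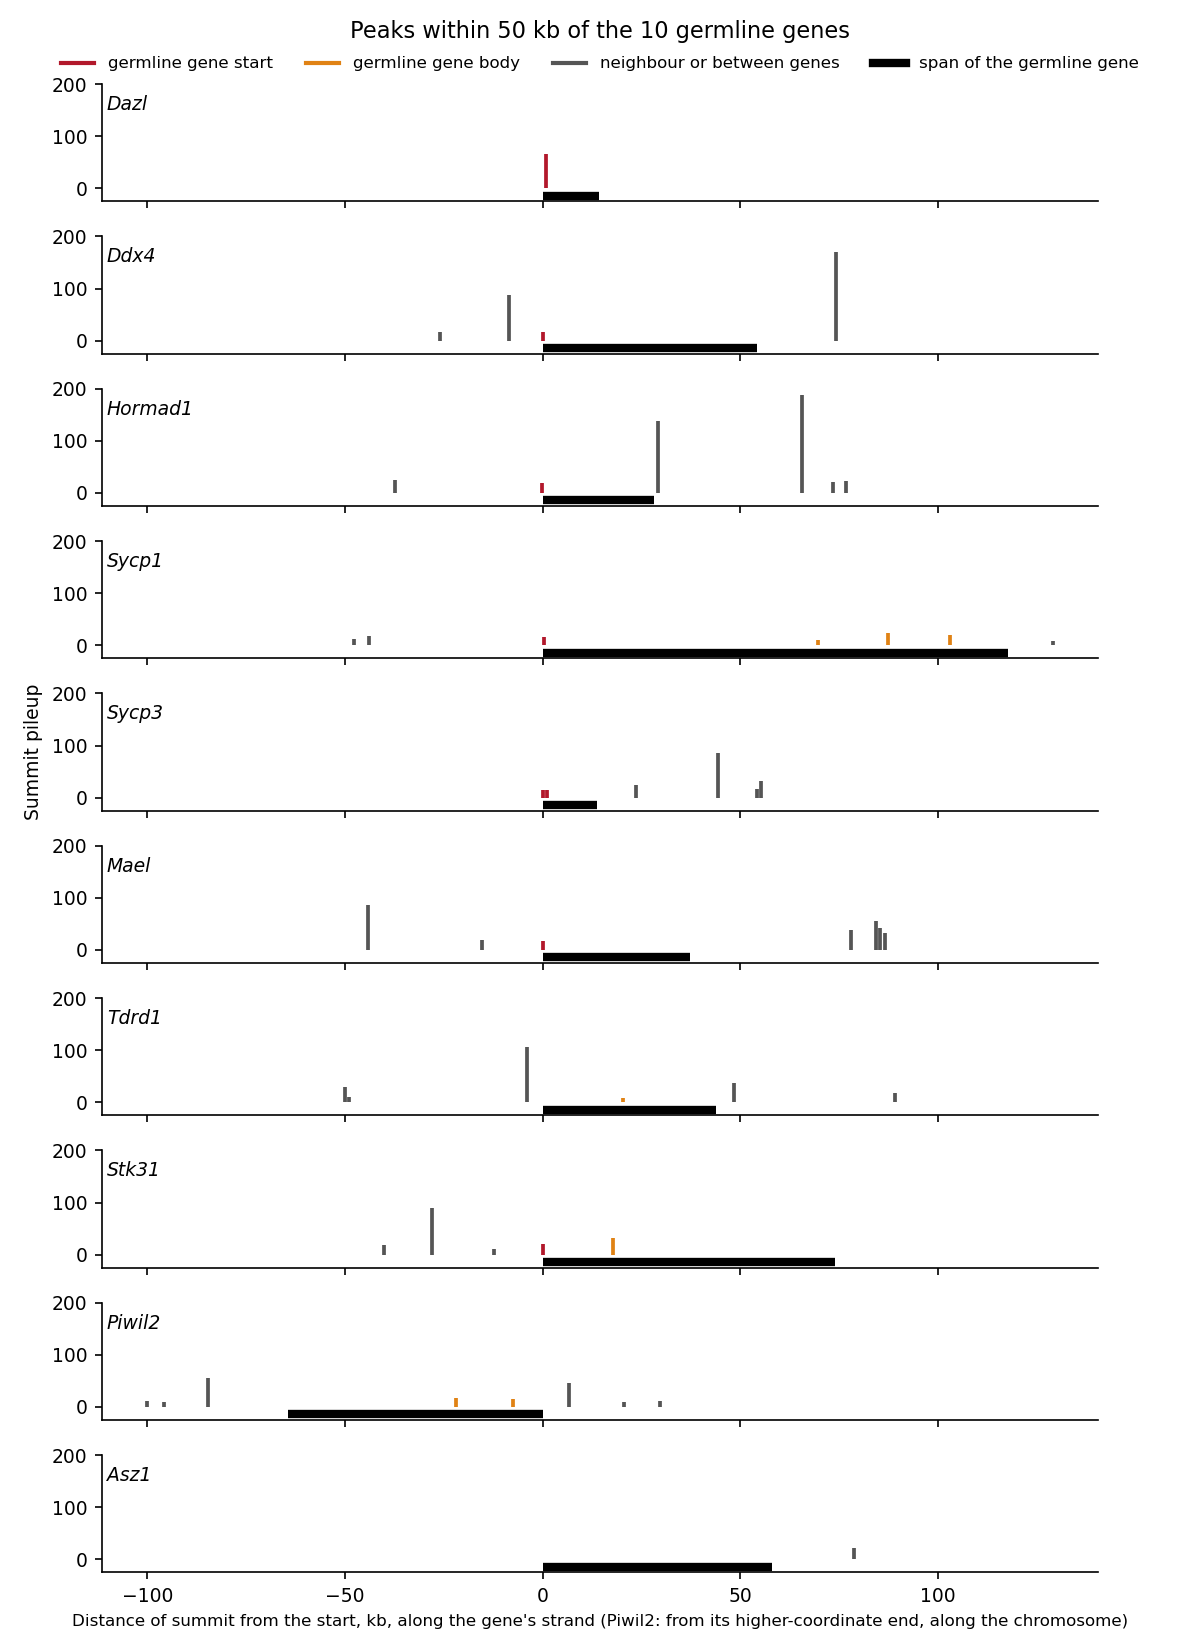
Every peak within 50 kb of each germline gene, drawn as a line at its summit with its pileup as height. Distances are in kb from the gene's start along its strand, or for Piwil2 from its higher-coordinate end along the chromosome. The germline start peaks are at 20 or less, except that of Dazl at 66, the only peak in its span. Peaks over 66 lie at starts or in bodies of neighbours.

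Of the 51 peaks in the widened spans, 8 lay at a start and 7 in the body of a germline gene, with medians of 17 in each class. The spans held between 0.633 (Asz1) and 5.28 (Sycp3) peaks per 100 kb, with a median of 3.69. Over all protein-coding genes the median was 5.07, with quartiles of 2.07 and 8.84. The spans of Dazl (0.875) and Asz1 lay under the lower quartile, and the other 8 lay between the quartiles. The tallest peak that was at no gene end lay 74.1 kb from the start of Ddx4, inside Il31ra, at chr13:112578184-112578731. It had a pileup of 171 (146 to 199) and a fold of 35.2. Near Mael, a peak of 87 (69.7 to 107) lay inside Ildr2 and 4 peaks of 32 to 55 inside Gpa33. Stk31 had a peak of 32 (21.9 to 45.2) in its body, 17.7 kb from its start, an interval that overlaps that of its start peak.

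The low start peaks stood at promoters rich in CpG, a class that was otherwise open nearly throughout. The promoter windows of the 9 germline genes held 15 (Sycp3) to 38 (Ddx4) CpG, with a median of 24, against a median of 13 over all protein-coding promoters. Their observed over expected CpG had a median of 0.783, against 0.576. Of the 9 germline genes, 7 had a start peak, with a median pileup of 17. Of all 7329 protein-coding promoters within the range of CpG that the 9 set, 15 to 38, 98.7% had a start peak, with a median pileup of 79 and quartiles of 51 and 113. A start peak of 20 or less, or none, was found at 8 of the 9, against 5.39% of all promoters in the range. That cutoff falls on the values of Hormad1 and Stk31, which stand at exactly 20. Promoters with fewer CpG had a start peak in 37.5%, with a median pileup of 47.

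**Figure D3:**
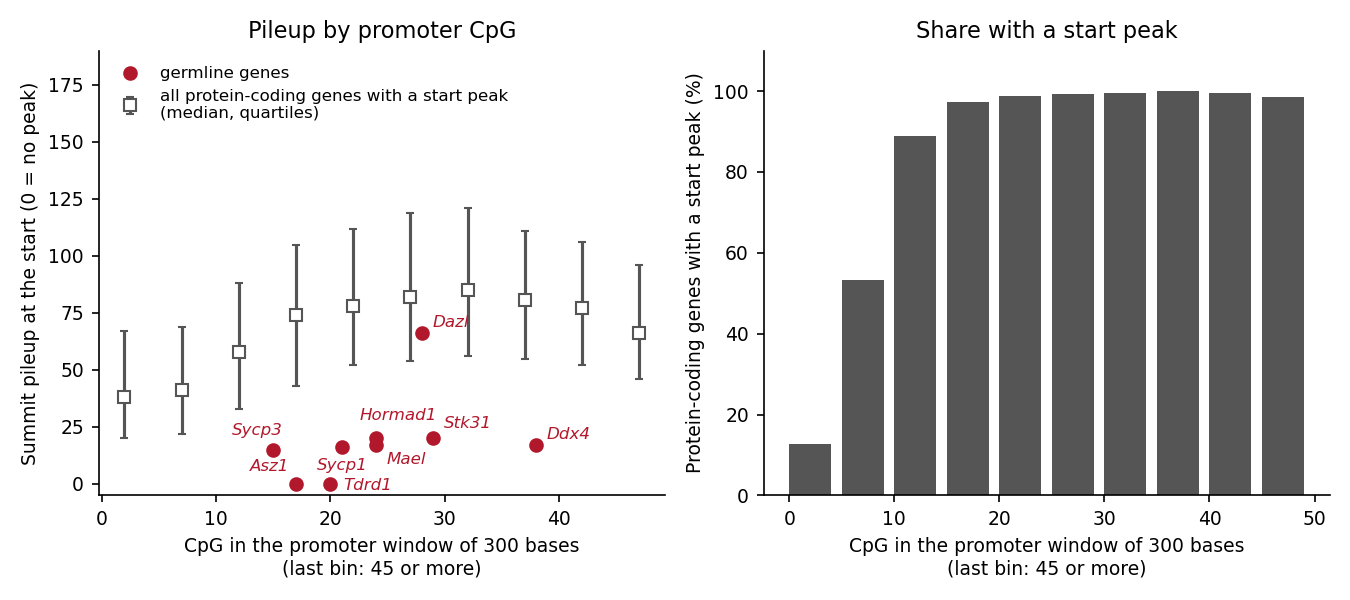
Left, summit pileup at the start against the number of CpG in the promoter window, for the germline genes (circles, 0 without a peak) and for all protein-coding genes with a start peak (squares, medians with quartiles in bins of CpG count). Right, the share of protein-coding genes with a start peak in each bin. Apart from Dazl the germline genes lie under the lower quartile of their bins.

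The sequence elements tied to silencing of this class were frequent in these promoters. Among these 9, the E-box was found at starts with a peak and at a start without. Tdrd1 and Asz1, which had no start peak, lacked the E2F core, as did Stk31 and Dazl, which had one. Whether the core goes with a start peak was not tested. The E2F core was present in 5 of 9 windows (55.6%), against 25.7% of all protein-coding promoters. It was about as frequent in the meiosis and silencing machinery lists described below, at 52.9% in each, so it is not particular to these genes. Both elements contain a CpG, and all promoters had a median of 13 CpG, against 24 here. No share among promoters of like CpG count was taken. The E-box was present in 7 of 9 (77.8%), against 7.9% of all and 41.2% of the list of other germ cell genes. Both were present in 5 of 9, namely Ddx4, Hormad1, Sycp1, Sycp3 and Mael, against 2.74%. No E2F core overlapped an E-box. Hormad1 held the E2F core with its first base at position -95 and E-boxes at -57 and -20, counted from the start base as 0. In Sycp3 the E2F core stood at -147 and the E-boxes at -64 and -43. In Ddx4 they stood at -136 and -29. All 5 genes with both elements had a start peak, each of 15 to 20. A start peak need not cover the elements. That of Sycp1 ended at chr3:102936071, inside the gene, short of its start at 102936100 and of both elements. Of all 480 promoters with both elements, 96.9% had a start peak, with a median pileup of 75, and 6.88% of these peaks had a pileup of 20 or less. Among genes with only the E-box, Stk31 had a start peak of 20 and Tdrd1 none. Among genes with neither, Dazl had the tallest and Asz1 none. A match describes these letters in this window and says nothing about binding.

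Other germline genes spanned a wider range of start pileups than the 10. Whether a peak at their ends is shared with a neighbour, as at Hormad1, was not examined. Of 19 further genes of the piRNA pathway, 12 had a gene-end peak (63.2%, against 66.5% of all protein-coding genes). The start peaks of those with a RefSeq start had a median pileup of 34.5, from 9 to 141, against 70 over all. The tallest gene-end peaks were those of Exd1 at 141, Tex19.1 at 63 and Pld6 at 56, while Fkbp6, a co-chaperone of the pathway, and Gtsf1 had none at their annotated ends. At a RefSeq start away from those ends Fkbp6 had a peak of 9. Of 20 further meiosis genes, 19 had a gene-end peak (95%), and the median start pileup was 46.5. Prdm9, the methyltransferase that sets recombination sites, led with a gene-end peak of 199, followed by Msh5 at 146 and Mei4 at 93. Stra8, a switch into meiosis, lacked a peak at its ends and had one of 46 at a RefSeq start. Of 18 other germ cell genes, 13 had one at a gene end (72.2%), and their start peaks had a median pileup of 23. Tex14 at 91, Kit at 79, the receptor also used in other stem cells, and Dnd1 at 66 led, while Figla and Nanos2 had none.

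Within the CpG range of 15 to 38, genes of these lists also had low starts. A start peak of 20 or less, or none, was found at 5 of 10 piRNA pathway genes, 2 of 10 meiosis genes and 5 of 10 other germ cell genes, against 5.39% of all promoters in the range.

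The genes of the silencing machinery had taller start peaks than the germline genes. Of 20 genes, 19 had a gene-end peak (95%, against 66.5% of all), and all 17 with a RefSeq start had a start peak, against 66.5% of all starts and 98.7% of those in the CpG range, where 14 of the 17 lie. Their median start pileup was 98. Max and Trim28 led at 171 each, followed by Cbx3 at 151. Dnmt1, the maintenance DNA methyltransferase, had no peak at its annotated ends but one of 107 (87.7 to 129) at a RefSeq start. E2f6 had the lowest start peak of the list, at 24 (15.4 to 35.7), beside 108 (88.6 to 130) for its partner gene Mga.

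**Figure D4:**
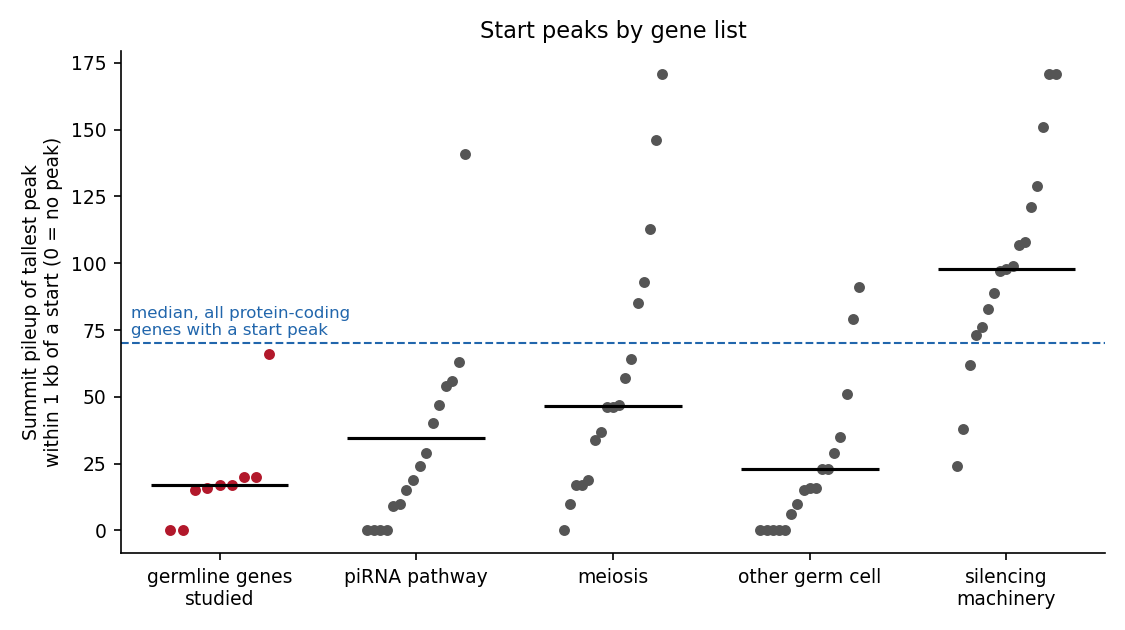
Summit pileup of the tallest peak within 1 kb of a start for each gene with a RefSeq start, by list, with 0 for no peak. Black lines are medians of the genes with a start peak and the dashed line, at 70, is the median of every protein-coding gene with a start peak. The germline genes described here lie under that line, and most genes of the silencing machinery lie above it.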

How the data were processed

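ATAC-seq peaks of 1 untreated library were analysed, grouped by sample title, because the label of treatment reads 6 h for the samples of 1 h and 24 h too. Per the submitters' processing notes, MACS2 2.2.6, Bowtie2 2.3.4.1 and SAMtools 1.9 were used, with mm10 and GRCm38.p6 as builds. No source used here gives read filters or a Tn5 shift. The deposited list holds a score, the authors' fold enrichment (a ratio to the local background of the same library, without a control) and the authors' -log10 p and -log10 q, with a q threshold of 0.05.

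Summit pileups were solved for from the deposited fold, taken as (pileup + 1)/(background + 1), together with the deposited p, taken as the Poisson chance of a higher pileup. They came out whole for 77626 of 77629 peaks (tolerance 0.01). Total read depth was unknown. Genes and promoters came from RefSeq tables of GRCm38.p6. Strand and start came from the promoter table, which matched 9 of the 10 genes and 17492 of 21887 protein-coding genes. Promoters of chromosome 18 were not used here. A peak counted by an overlap of 1 bp with 1 kb either side of a start or end, and the tallest was taken. CpG and motifs were counted in the first window listed for each gene.

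The genes, lists and settings were chosen with earlier results of these data known, and no p-value was computed from 1 library. Named genes were the 10, their protein-coding neighbours, and in each list the 3 with the tallest gene-end peak and the first 2 alphabetically with none. Others were named after their values were seen. The functions were tested on simulated data. Alternatives varied the q and pileup minimum, windows, overlap rule, radius, measure and motif. The software was scipy 1.17.1, pandas 2.3.3 and numpy 2.4.6 under Python 3.11.15, with matplotlib 3.10.9 for plots.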

Additional observations from a re-analysis of the deposited data

How the results depend on the processing

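With only peaks of a -log10 q of at least 5, windows of 500 or 2500 bp, or the summit required in the window, the counts of germline genes with a peak at a gene end or at the start stayed at 7 and the median pileup at 17. With a pileup of at least 20 required, both counts were 3, against 61.6% of all protein-coding genes by starts. The median gene-end pileup of the 3 left was 66, against 72 over all protein-coding genes, a ratio of 0.917. These 3 include Hormad1 with the peak it shares with Golph3l. The counts by gene ends for meiosis and other germ cell genes were 11 and 8, with no share over all genes given. Of the 51 peaks in the widened spans, 28 were left. By fold in place of pileup the ratio to all genes was 0.708. The spans held 26 peaks at 20 kb and 100 at 100 kb either side. With TTCCCGC as the E2F core, 3 of 9 promoters (33.3%) held it, against 5.99% of all protein-coding promoters and 29.4% of the meiosis list. By gene ends, with ends of neighbours beyond 50 kb counted too, 4 of 9 genes lay below their neighbours' median. It was 5 of 9 with windows of 500 bp or a pileup of at least 20, and 6 of 9 with windows of 2500 bp. The comparison with neighbours by starts alone, 7 of 8, was chosen after seeing the data, as was leaving out Dazl, which kept the median start pileup at 17. No paired analysis was possible because each group has 1 sample and 1 library was analysed. Low pileups of 6 to 20 carry wide counting intervals, and absence of a peak is a limit of detection.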

Other observations

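Among all 7329 protein-coding promoters with 15 to 38 CpG, 94 had no start peak and 301 had one of 20 or less. The low class was more frequent on the X chromosome, with 46 of 236 such promoters (19.5%), than on any other chromosome compared with over 100 of them. Promoters of chromosome 18 were not used here. The cutoff of 20 was the same on every chromosome and was not adjusted for copy number. The counts therefore do not show that promoters on X are more often closed, and the reason for the difference was not tested. None of the 10 germline genes lies on X.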
